A study of Solanum tuberosum with 10 samples.

Results

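The comparison described here is that of ultrasonicated (US) with control potato plantlets 1 w after the treatment. It holds 2 of the 10 libraries of the series, 1 per side, and its members were taken directly from the sampling time and treatment given in the labels. Explants were single-node segments of in vitro potato (Solanum tuberosum) cv. Desirée, cut from plantlets 4 w old and kept on Murashige and Skoog medium with no growth regulators. US was given once, at 35 kHz and 70 W for 20 min, right after the explants were laid on the medium, and controls were handled alike but not sonicated. RNA was sequenced at 5 times from the end of sonication to 4 w (0 h, then 24 and 48 h, then 1 w and at last 4 w). The labels call the material leaf, while the methods of the study describe explants up to 48 h and plantlets with leaves, stems and roots from 1 w on, with RNA of several biological replicates pooled per library.

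Ultrasound in liquid or gel exerts mechanical shear and cavitation, to which plants can respond as to wounding. Abscisic acid, made from carotenoids by 9-cis-epoxycarotenoid dioxygenase, and salicylic acid are hormones of drought and of pathogen responses. Potato also stores protease inhibitors of the Kunitz, cystatin and proteinase inhibitor 1 types, which act against insect and microbial proteases and are induced by wounding.

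Values were RPM, the reads of a gene scaled to a common library total, which are not corrected for gene length, so levels are compared between libraries and not between genes. A gene was counted as raised or lowered when it reached 1 RPM or more in the higher of the 2 libraries and its log2 difference, US minus control, was 2 or more either way (4-fold). With 1 library a side the 1 w pair alone allows no test of single genes. The intervals given beside ratios are exact 95% (Clopper-Pearson) intervals of the read counts, and they cover counting error only, not the variation between cultures. The RPM of all features summed to 1.75 (control) and 1.73 (US) times the library total, so parts of a read or pair may be counted more than once, and the intervals may be too narrow.

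The 2 libraries at 1 w had 40668574 (control) and 40508308 (US) reads, within the range of 33850938 to 45899162 over all 10. Of 40430 features, 21701 reached 1 RPM in either library. The control library had 1816 features with 1 to 5 reads and the US library 1201, and features annotated as ribosomal RNA held 0.101% of the summed RPM in the control and 0.219% in US. The defining markers of green tissue were present in both libraries, since the 13 genes of light harvesting and photosynthesis summed to 1487 RPM in the control and 502 RPM in US, against 523 to 2299 RPM in the other 8 libraries. The US library was below all others in this sum. However, 8 of the 13 genes are ones the study listed as differing at 1 w in these same libraries, with 1201 RPM in the control and 355 RPM in US. The sum is therefore not an independent measure of green tissue, and the part of tissue composition in the differences below was not tested. In whole tissue, fewer cells of a type and less RNA per cell cannot be told apart.

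At 1 w, US raised 122 genes and lowered 253 genes, which is 0.562% and 1.17% of the 21701 tested. Both directions together made 1.73%, the smallest share of the 5 times. The explants sampled directly after sonication had 3.75%, those of 24 h 3.21% and those of 48 h 4.19%, and the plantlets of 4 w had 5.42%. At a mean log2 RPM of 4 and above in the other libraries, the share at 1 w was 0.233% (29 genes) and the smallest was that of 24 h, with 0.185% (23 genes). The spread of the log2 difference over genes of mean log2 RPM of at least 0, as a median absolute deviation scaled to an SD, was 0.44 at 1 w and 0.53 to 0.66 at the other times. At 1 w 93.2% of these genes differed by less than 2-fold, against 82.5% to 87.0% at the other times. Lowered genes made 67.5% of those past the rule at 1 w, against 54.8% to 66.8% elsewhere. The median log2 difference over the genes tested was 0.01, and a bar of 2-fold in place of 4-fold was passed by 3.68% of genes upwards and 5.01% downwards.

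Most of the genes that differed were genes of low RPM, a value not corrected for gene length. Their median genomic span was 1249.5 bases for raised and 1592 bases for lowered genes, against 3434 bases for all genes tested. The part of length in the low RPM was not tested. Levels were taken as the mean log2 RPM of the other 8 libraries, which had no part in choosing the genes. However, a gene was tested only if a library at 1 w reached 1 RPM, a log2 of 0. Below a level of 0, genes thus entered only where a library at 1 w lay above that level. The shares and directions in these classes therefore depend in part on the same libraries as the rule. Of the raised genes 107 (87.7%) and of the lowered genes 181 (71.5%) lay below a level of 2, where only 21.1% of the genes tested were found. The share past the rule was 17.6% below a level of -2, 8.70% from -2 to 0, 3.53% from 0 to 2, 1.24% from 2 to 4, and 0.179% to 0.292% in each class above. The spread of the difference went down with level as well, from 1.1 below -2 to 0.34 in the class from 6 to 8, and was 0.47 at 8 and above. At a level of 4 and above 4 genes were raised and 25 lowered, of 12427. The direction also varied with level. Below -2 raised genes outnumbered lowered ones, 48 to 34, whereas from 0 to 2 there were 24 raised and 80 lowered. The counting interval lay beyond 2-fold for all 122 raised and all 253 lowered genes, and beyond 4-fold for 37 and 117. The 2-fold result follows from the rule itself and is no added support. A level of 1 RPM is 40.7 reads in the control and 40.5 in US, and the rule asks for 4-fold.

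**Figure D1:**
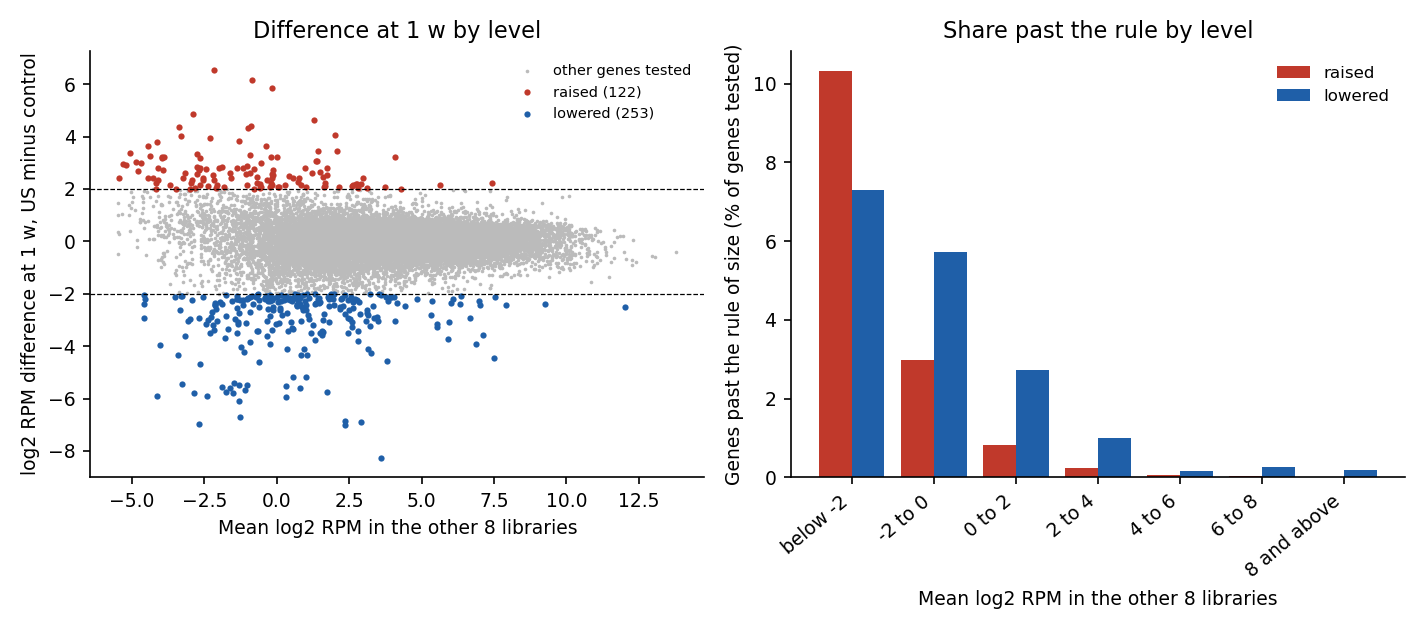
Left, log2 RPM difference at 1 w (US minus control) against the mean log2 RPM of the other 8 libraries, with 1 point per gene tested and dashed lines at the rule of size. Right, the share of genes tested that were raised or lowered, by level. The share falls from 17.6% in the lowest class to under 0.3% above a level of 4, where lowered genes outnumber raised ones 25 to 4.

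The genes nearest the rule show how narrow it is. Just inside were PGSC0003DMG400018613, with 20 control and 80 US reads, and PGSC0003DMG400030403, with 46 and 184. Just outside were PGSC0003DMG400003737, with 39 and 155 reads, and PGSC0003DMG400013755, with 48 and 189. Among falls, PGSC0003DMG400026148 went from 197 to 49 reads and PGSC0003DMG401015022 from 728 to 181 inside the rule. PGSC0003DMG400002887, with 44 and 11 reads, and PGSC0003DMG400013385, with 64 and 16, stayed outside.

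The sequences of the RT-qPCR primers that the study designed are shown for the genes of its RT-qPCR set that its list also holds at 1 w (each is listed at another time too), since they identify the transcript measured. The primer list names PGSC0003DMG402031237, whereas the methods name the overlapping PGSC0003DMG401031237. The first pair belongs to the 9-cis-epoxycarotenoid dioxygenase gene on chromosome 7, whose reads were lost in US.
PGSC0003DMG400027633 FWD: ccaaatgtgttcaaggcgt
PGSC0003DMG400027633 REV: ttagggaaaacagggcgac
The next pairs belong to a non-specific lipid-transfer protein 2-like gene on chromosome 10 that was raised at 1 w, and to its relative on chromosome 1. Capitals mark the bases at which the primers of the 2 genes differ.
PGSC0003DMG402031237 FWD: ctccTtgcctcccAtatct
PGSC0003DMG400002471 FWD: ctccAtgcctcccTtatct
PGSC0003DMG402031237 REV: ttgcccacatCaatgcct
PGSC0003DMG400002471 REV: ttgcccacatTaatgcct
Counted from 1 at the 5′ end, with the chromosome 10 gene first, the substitutions are T5A and A14T in the forward primer and C11T in the reverse primer.

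Names below come from the gene list that accompanies the study, and that list was drawn up on these same libraries, so counts over its genes are not independent evidence of a direction. It holds 367 genes, 86 of them for the 1 w comparison. By the rule of size 48 of the 86 were lowered and 8 raised, with a median log2 difference of -2.25. Of the 281 genes listed at other times only, 263 were tested, 9 were lowered, 6 were raised and the median was 0.12.

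Of 11 genes of abscisic acid and drought tested, 6 were lowered and none raised, 3 had a difference above 0, and the median log2 difference was -2.61, against 0.01 over all genes. All 6 were listed by the study at 1 w, and among the 4 genes listed at other times only none passed the rule. The summed level of the list did not follow the count, at 368 RPM in the control and 427 RPM in US, with a universal stress protein A-like gene (PGSC0003DMG400002804) at 78.5 and 205 RPM. The gene for 9-cis-epoxycarotenoid dioxygenase (PGSC0003DMG400027633, chromosome 7, 51778895 to 51781175, minus strand, SolTub 3.0) encodes the enzyme that commits carotenoids to abscisic acid. In order of sampling it had 234, 2.94, 18.9, 6.81 and 2.84 RPM in the control and 27.1, 8.13, 7.58, 0 and 7.25 RPM in US, the fourth value being that of 1 w. Of the 10 libraries, US at 1 w alone had no read of this gene. Set against a floor of 3 reads, the 277 reads of the control give a level 92.0-fold lower in US. That floor is a convention, and the counting interval of a gene without reads reaches nearer to no difference. On the scale of the table the fall of this gene was the largest of all genes tested.

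Further genes of this list, which was drawn up by words in the names, were lowered as well. Some protein phosphatases of type 2C repress abscisic acid signalling and are themselves induced by the hormone. Of the genes the study names as probable phosphatases of this type, 2 were lowered, and whether they have that role was not tested. PGSC0003DMG400009112 had 51 RPM in the 1 w control and 5.80 RPM with US, which is 8.79-fold lower (7.68 to 10.1), and its other 8 libraries ranged from 6.16 to 252 RPM. PGSC0003DMG400030332 went from 22.4 to 2.72 RPM and was 8.27-fold lower (6.78 to 10.2). Both genes named after ATHB-12, a homeobox-leucine zipper factor that responds to drought in Arabidopsis, were lowered. PGSC0003DMG400012118 had 7.87 RPM in the control and 1.04 RPM in US, a 7.59-fold lower level (5.49 to 10.7), and PGSC0003DMG400000248 had 8.68 and 1.28 RPM.

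Protease inhibitors formed the list with the most lowered genes. Of 16 tested, 9 were lowered and 1 was raised, with a median log2 difference of -2.31. Of the 8 listed by the study at 1 w 7 were lowered, and of the 8 listed at other times only 2 were lowered and 1 was raised. Cystatins inhibit cysteine proteases. The cystatin gene PGSC0003DMG400026899 had 21.8, 212, 229, 102 and 492 RPM in the control in order of sampling, and 281, 211, 203, 4.62 and 181 RPM in US. The 2 treatments were alike at 24 h and 48 h, and US was 22.1-fold lower (19.1 to 25.7) at 1 w, below every other library. The neighbouring cystatin genes PGSC0003DMG400005921 and PGSC0003DMG400005950, on the same stretch of chromosome 6 from 54093287 to 54198068, were 19.4-fold (11.1 to 36.9) and 11.8-fold (10.6 to 13.1) lower. They are the only 3 genes of that stretch that reached 1 RPM.

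The Kunitz-type protease inhibitor PGSC0003DMG400009513 was the lowered gene of highest RPM, a ranking not corrected for gene length. Its level was 1426 RPM in the 1 w control and 253 RPM with US, a 5.63-fold difference (5.51 to 5.75), while the other 8 libraries ranged from 765 to 12373 RPM. The US library was below all of these. The cysteine protease inhibitor 8-like gene PGSC0003DMG400010136 went from 119.9 to 7.90 RPM, 15.2-fold lower (13.6 to 17), and its relative PGSC0003DMG400010144 from 11 to 0.642 RPM. Proteinase inhibitor 1 (PGSC0003DMG400012089), a serine protease inhibitor known from wounded potato leaves, was 13.3-fold lower (11.6 to 15.2). The summed level of the list was 2688 RPM in the 1 w control and 738 RPM with US, and 1353 to 27955 RPM in the other 8 libraries.

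The exception was a miraculin-like gene (PGSC0003DMG400027054), of the Kunitz family. It had 0 control reads and 64 US reads at 1 w, 21.4-fold higher against the floor of 3 reads. Its other levels were 0 RPM at 0 h in both treatments, 1.72 RPM at 24 h in the control and 20.7 RPM in US, and 30.5 RPM at 48 h in the control and 1.11 RPM in US. The gene was at or near 0 in several libraries of both treatments.

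Among 8 proteases tested, 1 was lowered and none raised, with a median log2 difference of 0.23. Cysteine proteinase 3 (PGSC0003DMG400027888), a papain-type enzyme, had 101, 519, 1605, 1234 and 2079 RPM in the control over the 5 times and 463, 1362, 914, 233 and 222 RPM in US. It was 5.29-fold lower in US at 1 w (5.17 to 5.41). The aspartic proteinase-like gene PGSC0003DMG400030172 was just short of the rule with 88.4 and 22.6 RPM, and a basic secretory protease (PGSC0003DMG400025765) had 6.12 and 19.5 RPM.

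Genes of defence and salicylic acid were divided between the study's own choice at 1 w and the rest. Of 15 tested, 5 were lowered and 1 was raised, with a median of -0.32. All 5 lowered genes were among the 6 listed at 1 w, and of the 9 listed at other times only 1 was raised and none was lowered. WRKY70, a transcription factor that in Arabidopsis acts in salicylic acid signalling, was represented by PGSC0003DMG400020608. Its control levels were 288, 56.0, 31.3, 36.7 and 28 RPM over the 5 times and its US levels 205, 43.6, 11.3, 3.78 and 15.7 RPM. The US library was the lower one at each time, and at 1 w it was 9.71-fold lower (8.22 to 11.5). A second WRKY70 gene, PGSC0003DMG400029207, was 4.88-fold lower (4.45 to 5.36).

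WRKY51 (PGSC0003DMG401031196), of the same family, had 118 control reads and 1 US read at 1 w, that is a 118-fold lower level (20.7 to 4681), and 1.74 to 44.6 RPM in the other 8 libraries. This gene overlaps another feature, whose reads may be counted with it. The gene for a NIM1-INTERACTING 2-like protein (PGSC0003DMG400005762), a partner of the salicylic acid co-activator NPR1 in Arabidopsis, was 7.06-fold lower (5.96 to 8.43), at 26.5 and 3.75 RPM. In the other direction, defensin-like protein 1 (PGSC0003DMG400024205), a small antimicrobial peptide, had 0.688 RPM in the control and 4.84 RPM in US. It was 7.03-fold higher (4.71 to 10.9), while at 4 w the control had 20.0 RPM and US 0.380 RPM.

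All 6 transcription factors listed by the study at 1 w were lowered, and none of the 15 tested that were listed at other times only passed the rule. Besides the WRKY and ATHB-12 genes these included ethylene-responsive transcription factor 1B (PGSC0003DMG400013255), a regulator of ethylene and jasmonate responses in Arabidopsis, which was 10.8-fold lower (6.88 to 17.7). Over all 21 tested the median log2 difference was -0.16.

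Major latex proteins, among them the kirola-like ones, had lower values in US in 6 of 6 genes tested, and 4 were lowered. The median was -2.49. All 3 that the study listed at 1 w were lowered, with a median of -3.48. Among the 3 listed at other times only, 1 was lowered and the median was -1.21. PGSC0003DMG400031511 had 3.13, 1.20, 1.05, 18.4 and 0.742 RPM in the control over the 5 times and 7.35, 1.24, 2.83, 1.06 and 2.33 RPM in US. Here it was the control library at 1 w that stood above all others, and the US library lay within the range of the rest. PGSC0003DMG400007460 also had its highest level there, with 15.2 RPM in the control at 1 w, and the US library, at 1.36 RPM, was just below the 1.5 to 7.27 RPM of the other 8 libraries. The fold differences were 17.3 (12.7 to 24.1) and 11.2 (8.49 to 15).

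**Figure D2:**
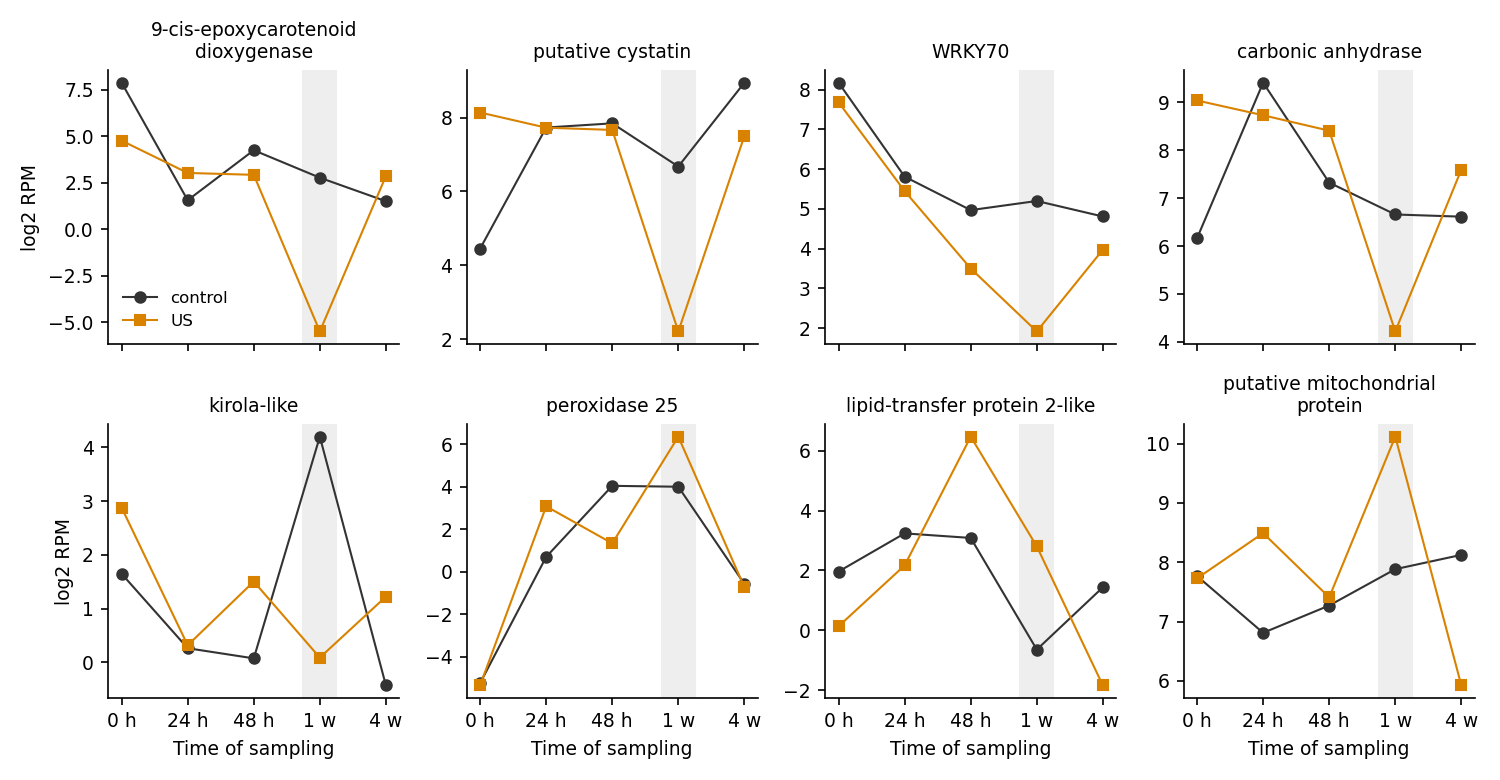
Level (log2 RPM) of 8 named genes in each of the 10 libraries, with control as circles and US as squares and the 1 w pair shaded. A gene without reads is drawn at the value the table gives it, 0.9 reads. The cystatin and WRKY70 genes are lowest in US at 1 w, whereas the kirola-like gene is highest in the control at 1 w.

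Of 12 green tissue genes tested, 1 was lowered, none was raised and 11 had a difference below 0, with a median log2 difference of -1.61. The 8 listed by the study at 1 w lay between -2.44 and -1.51, and the 4 tested that were listed at other times only had a median of -0.05. Chloroplast carbonic anhydrase (PGSC0003DMG400006956), which supplies CO2 and bicarbonate in leaf cells, had 101 RPM in the control and 18.6 RPM in US, 5.42-fold lower (5.01 to 5.86), with 71.7 to 678 RPM in the other 8 libraries. For chlorophyll a/b binding proteins, the antenna of the photosystems, the pattern was another one. PGSC0003DMG400008301 had 49.4, 103, 72.6, 418 and 236 RPM in the control and 25.8, 72.5, 123, 119 and 183 RPM in US. The control library at 1 w was the highest of the 10, and US was 3.53-fold below it (3.42 to 3.64). PGSC0003DMG400008300 (132 and 38.5 RPM) and PGSC0003DMG400013415 (111 and 33.9 RPM) had the same order at 1 w. The plastid-encoded reading frames of this list that were tested did not pass the rule.

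All 3 genes of sulfur assimilation and deficiency had lower values in US, and none passed the rule. The log2 differences were -1.90 for the SULFUR DEFICIENCY-INDUCED 1-like gene PGSC0003DMG400014702, -1.75 for the RESPONSE TO LOW SULFUR 3-like gene PGSC0003DMG400000546 and -1.29 for adenylylsulfate reductase (PGSC0003DMG400019872), an enzyme of sulfate reduction. These 3 were all listed by the study at 1 w.

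Lipid transfer proteins, small secreted proteins that carry lipids for cuticle and membranes, moved both ways. Of 16 tested, 3 were raised and 5 lowered, with a median of -0.38. The 2-like gene PGSC0003DMG402031237, for which the primers are printed above, had 3.90, 9.43, 8.49, 0.639 and 2.71 RPM in the control and 1.1, 4.5, 88.7, 6.99 and 0.279 RPM in US. At 1 w it was 10.9-fold higher in US (7.3 to 17), while the peak of US was at 48 h. PGSC0003DMG401031237, which lies inside the span of that gene on chromosome 10, was 11-fold higher (7.02 to 18.1), and the reads of the 2 may not be separable. Its chromosome 1 relative PGSC0003DMG400002471 had 21 control and 68 US reads, with a log2 difference of 1.70. Lowered members included the 1-like gene PGSC0003DMG400020822, with 114 control and 0 US reads, 37.9-fold lower against the floor of 3 reads. In the other 8 libraries its level was 0 to 1.04 RPM, so the control at 1 w stood apart. PGSC0003DMG400011952 had 20.5 RPM in the control and 3.93 RPM in US.

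Genes of the cell wall were little changed as a list. Of 37 tested, 1 was raised and 2 were lowered, and the median log2 difference was 0.26. A gene for a glycine-rich structural protein of the wall (PGSC0003DMG400002108) had 14.5 RPM in the control and 60.8 RPM in US, 4.18-fold higher (3.82 to 4.58), above the 0.177 to 54.1 RPM of the other 8 libraries. BURP domain-containing protein 16-like (PGSC0003DMG400027019) was just short of the rule, with 19.8 and 76.7 RPM. Expansin-like B1 (PGSC0003DMG400026221), of a family that loosens walls, went from 10.4 to 0.444 RPM and was 23.5-fold lower (14.7 to 39.98). CASP-like protein 4D1 (PGSC0003DMG400027047), a membrane protein, had 149 RPM in the control at 1 w, 30.7 RPM in US and 12.9 to 86.5 RPM elsewhere.

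Of 16 redox enzymes tested, 1 was raised and 1 was lowered. A difference above 0 was found in 11, against 11068 of all 21701 genes, and the median was 0.34, against 0.01 over all genes. The spread of 0.44 is that of single genes and gives no error for such a median, which was not tested. Peroxidase 25 (PGSC0003DMG400025478), a secreted class III peroxidase, had no read at 0 h in either treatment. Its control levels were then 1.63, 16.6, 16.1 and 0.676 RPM and its US levels 8.51, 2.54, 82.6 and 0.608 RPM. It was 5.12-fold higher in US at 1 w (4.71 to 5.58), where it was at the highest level of the series, and the higher treatment changed from 24 h to 48 h to 1 w. Peroxidase 3-like (PGSC0003DMG400005273) had 79.7 and 215 RPM, below the rule. Lactoylglutathione lyase-like (PGSC0003DMG400003626), which detoxifies methylglyoxal, was 4.41-fold lower (3.84 to 5.09), and a monothiol glutaredoxin-S2-like gene (PGSC0003DMG400022674) had 64.9 and 18.8 RPM.

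Of 9 genes of sugar metabolism tested, 1 was raised and 1 lowered, with a median of 0.40. Inositol oxygenase 2-like (PGSC0003DMG401000287), which opens myo-inositol towards wall sugars, had 6.15 and 28.2 RPM and was 4.59-fold higher (4.00 to 5.28). An apoplastic invertase (PGSC0003DMG401028252), which splits sucrose outside the cell, had 53.2 and 143 RPM, and a sucrose synthase-like gene (PGSC0003DMG400013547) had 83.0 and 34.2 RPM. An alpha-glucosidase YihQ-like gene (PGSC0003DMG400008345) was 4.80-fold lower (4.07 to 5.69).

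Reading frames of organellar and ribosomal DNA included the raised gene of highest level. Of 11 tested, 2 were raised and none lowered, and their median was 0.31. The 4 listed at 1 w lay between 1.58 and 2.23. A putative mitochondrial protein (PGSC0003DMG400019855) had 218, 112, 154, 236 and 279 RPM in the control and 212, 360.1, 170.0, 1112 and 60.7 RPM in US. The US library at 1 w was the highest of the 10, 4.70-fold above the control (4.60 to 4.81). A gene named TAR1 (PGSC0003DMG400034963), a reading frame antisense to ribosomal RNA in yeast, had 11.9 and 53.1 RPM. Here the control at 1 w was the lowest of the 10 libraries and the US library was within the range of the rest, 17 to 208 RPM. A second TAR1 gene, PGSC0003DMG400046276, had 534 and 1758 RPM, and the mitochondrial reading frame orf185 (PGSC0003DMG400013204) 13 and 51 RPM. A large subunit ribosomal RNA feature (ENSRNA049464778) had 185 and 1727 reads. Of the raised features 10 were not PGSC genes and 3 were annotated as ribosomal RNA, against 68 and 32 of all 21701 features tested, and of the lowered features none was either. Since libraries were made from poly(A)-selected RNA, the share of ribosomal RNA is given beside these genes, 0.101% in the control and 0.219% in US, within the 0.111% to 0.547% of the other 8 libraries for US but below it for the control. Its part in the result was not tested.

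**Figure D3:**
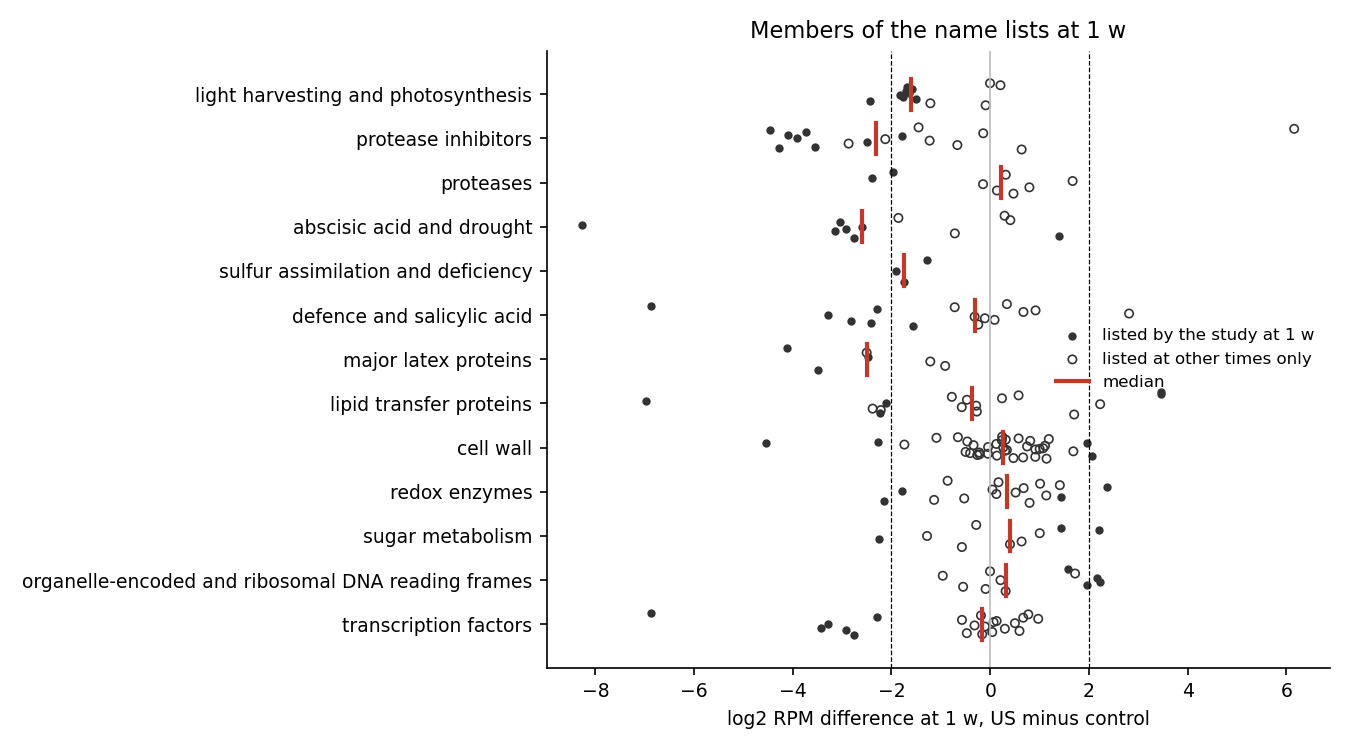
log2 RPM difference at 1 w (US minus control) of each tested member of the 13 name lists, with filled points for genes the study listed at 1 w, open points for genes listed at other times only, red bars for list medians and dashed lines at the rule of size. The medians run from -2.61 for abscisic acid and drought to 0.40 for sugar metabolism.

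The largest rises were found in genes of few reads. PGSC0003DMG400022567, with no name in the study's list, had 0 control and 83 US reads, 27.8-fold higher against the floor of 3 reads. Its level was 0 to 2.72 RPM in the other 8 libraries. PGSC0003DMG400026436 had 0 and 52 reads, 17.4-fold higher against that floor, and PGSC0003DMG400031035 had 2 and 58 reads, 29.1-fold higher (7.70 to 246). A small subunit ribosomal RNA feature (ENSRNA049453899) had 6 and 147 reads. Of the 122 raised genes 3 had no read in the control, and of the 253 lowered genes 14 had none in US. The largest falls, next to 9-cis-epoxycarotenoid dioxygenase, included a gene named 11-beta-hydroxysteroid dehydrogenase 1B-like (PGSC0003DMG400028960), with 129 and 1 reads, 128-fold lower (22.7 to 5114). Another was SPIRAL1-like 5 (PGSC0003DMG400012325), of a family that orients microtubules, with 106 and 0 reads, 35.2-fold lower against the floor of 3 reads.

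Besides the Kunitz inhibitor, cysteine proteinase 3 and the CASP-like gene, the lowered genes of highest RPM were a plastid-lipid-associated protein 14 gene (PGSC0003DMG400009120) and a DnaJ domain protein gene (PGSC0003DMG400020433), the latter a co-chaperone type. The first had 69.7, 81.7, 82.7, 491 and 598 RPM in the control over the 5 times and 57.6, 57.8, 118, 65.1 and 101 RPM in US. It was 7.55-fold lower in US at 1 w (7.25 to 7.86), and in the control alone it was high at both 1 w and 4 w. The second had the same form, with 258 and 297 RPM in the control at 1 w and 4 w and 61.1 and 109.8 RPM in US.

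Each difference was set against the other 8 libraries to see which of the 2 libraries at 1 w lay apart. As the genes were chosen on the libraries at 1 w, this is a description and not a test. Of the raised genes 56 (45.9%) had US above all 8 and 28 (22.95%) had the control below all 8, against 18.7% and 6.22% of all genes tested. Of the lowered genes 118 (46.6%) had US below all 8, and 69 (27.3%) had the control above all 8, against 9.47% and 13.4%. Neither library left the range of the other 8 in 41 raised and 79 lowered genes, as for the defensin-like gene and the lipid-transfer gene PGSC0003DMG402031237, whose levels varied widely over the series. US alone was apart in 45 raised and 100 lowered genes, and the control alone in 23 and 55, the latter with the kirola-like gene PGSC0003DMG400031511 among them.

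**Figure D4:**
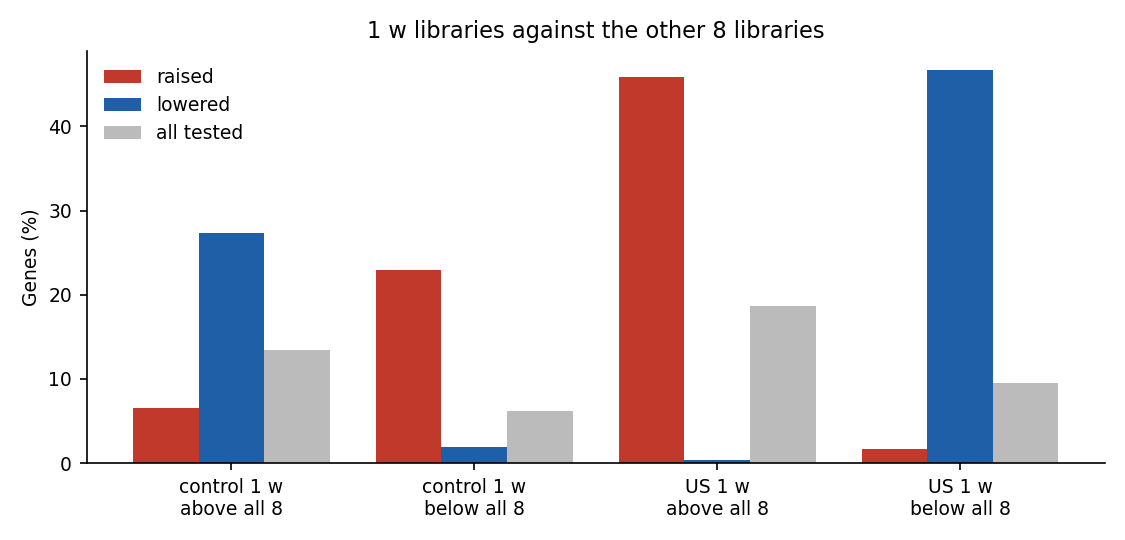
Share of raised, lowered and all tested genes (%) for which the control or the US library at 1 w lay above or below all of the other 8 libraries. US lay below all 8 in 46.6% of lowered genes and above all 8 in 45.9% of raised genes.

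The genes raised at 1 w had their highest median control level at 48 h and were about as low at 4 w as at 0 h (median log2 RPM of -1.08 at 0 h, -0.59 at 24 h, -0.06 at 48 h and -1.06 at 4 w). From 48 h to 4 w, a step that uses no library at 1 w, their control level changed by a median of -1.41 on the log2 scale, against -0.19 over all genes tested, and 70 of 122 (57.4%) fell by 2-fold or more, against 22.2%. The median was -0.74 when the step was taken from 24 h and -0.39 on the log2(RPM + 1) scale, for which no value over all genes was computed. The median level in the other 8 libraries was -0.93 for raised and 0.61 for lowered genes, against 4.51 for all genes tested. No course of genes of like level was computed, so the part of low level in these differences was not tested. In US the step from 48 h had a median of -1.07. The genes lowered at 1 w had a control median of -0.05, and 88 (34.8%) fell and 74 (29.2%) rose by 2-fold or more, the latter against 10.7% of all genes. Their changes went both ways. Without the libraries at 1 w, the control level of the raised genes was lowest at 4 w in 51 (41.8%), against 24.6% of all genes. The control level of the lowered genes was highest at 4 w in 83 (32.8%) and at 0 h in 76 (30.0%), against 23.1% and 21.5% of all genes. It was highest at 48 h in 70 (27.7%), against 30.5%, and at 24 h in only 24 (9.49%), against 24.8% of all genes.

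The step from 48 h to 1 w, which includes the libraries the genes were chosen on, is given as a description. For raised genes it had a median of -1.63 in the control and 1.55 in US, and for lowered genes 0.57 in the control and -1.93 in US. Within its own course, US at 1 w was the lowest of 5 times in 140 of 253 lowered genes and the highest in 66 of 122 raised genes.

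**Figure D5:**
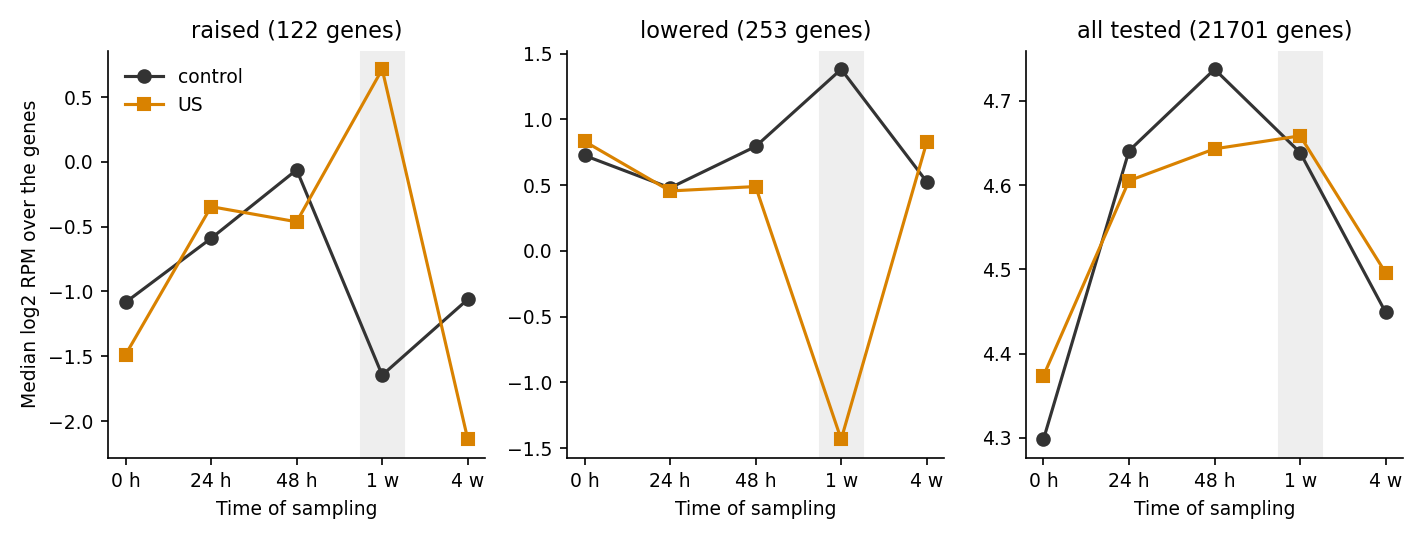
Median log2 RPM over the raised, lowered and all tested genes at each time, with control as circles and US as squares and 1 w shaded; the axes differ between panels. Outside 1 w, the control median of raised genes went from -0.06 at 48 h to -1.06 at 4 w.

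Of the 375 genes, 156 (41.6%) also passed the rule at another time or more, 219 (58.4%) at no other time, and none at all 5. The like share over all genes tested, or over genes of like level, was not computed, so these counts are a description only. Genes of low level passed more often at every time, again among genes that reached 1 RPM in a library of that time. Below a mean log2 RPM of 4, 7.92% of the genes tested passed at 0 h, 7.41% at 24 h, 9.18% at 48 h and 11.5% at 4 w. Counted over the other 4 times, raised genes passed 25 times in the same direction and 42 times in the opposite one, and lowered genes 92 and 47 times. Of the raised genes 27 also passed at 48 h, 7 of them raised and 20 lowered there, and 22 passed at 4 w, 7 raised and 15 lowered. At 24 h all 9 that passed were raised. Of the lowered genes 56 also passed at 4 w, 40 lowered and 16 raised, 36 at 48 h, 26 lowered and 10 raised, and 16 at 24 h, 10 lowered and 6 raised. The genes shared with 4 w were 22.1% of the lowered genes at 1 w, and 5.42% of all genes tested passed at 4 w. They were 4.90% of the genes past the rule at 4 w, and 1.17% of all genes tested were lowered at 1 w. Not all genes of 1 w reached 1 RPM at the other times. At each of these, 164 to 187 of the 253 lowered and 46 to 71 of the 122 raised genes were tested. For reading these counts, the share of all genes tested that was raised and lowered was 1.70% and 2.06% directly after sonication, 1.40% and 1.81% after 24 h, then 1.39% and 2.80% after 48 h and 2.39% and 3.03% in plantlets of 4 w. The 9 raised genes that passed at 0 h were 2 raised and 7 lowered there, and the 31 lowered genes were 16 lowered and 15 raised. PGSC0003DMG400009112, the 2C phosphatase, was among those lowered at both 1 w and 4 w, and peroxidase 25 among those raised at 24 h and 1 w but lowered at 48 h.

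Whether the difference at 1 w was itself different from that at the other times was tested over all 10 libraries with limma. With 1 library per group, the error of this fit comes only from how the US difference varied between the other 4 times. A gene without a call is thus not shown to have differed alike at 1 w and at the other times. No gene of 20494 passed an adjusted p of 0.05 (Benjamini-Hochberg), and 225 genes (1.098%) had an unadjusted p under 0.05. The gene of smallest p was WRKY51 (PGSC0003DMG401031196), with a log2 difference at 1 w minus that at the other times of -5.99 and an adjusted p of 1.00.

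Some of the genes lay side by side. Of the lowered genes 36 (14.2%) were in 16 runs of neighbours among the genes tested, and of the raised genes 6 (4.92%) were in 3 runs. The share that genes picked without regard to place would give was not computed. Among the raised runs, TAR1 (PGSC0003DMG400034963) with ENSRNA049463258, and PGSC0003DMG402031237 with PGSC0003DMG401031237, are overlapping features whose reads may not be separable. The longest was a run of 4 lowered genes on chromosome 7, from 46154268 to 46286271, which holds a germacrene D synthase-like gene (PGSC0003DMG402015022), for a sesquiterpene enzyme, at 24.5 RPM in the control and 5.58 RPM in US. The 3 cystatin genes formed another. Features that overlap another one made 12.3% of the raised, 9.88% of the lowered and 11.4% of all genes tested.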

How the data were processed

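RNA of potato plantlets was sequenced by the authors from stranded poly(A) libraries, trimmed with Trim Galore 0.5.0, aligned with HISAT2 2.1.0 to SolTub 3.0 and quantified per gene in SeqMonk. The deposited values are log2 RPM, scaled by the authors to the library total. A gene without reads holds 0.9 reads, which gave each library's total, and 99.98% of the other values lay within 0.1 of a whole read. Pooling within a library hides the variation between cultures. From these values the difference at 1 w, its rule of size and counting intervals were computed in Python 3.11.15 (pandas, scipy). The difference at 1 w against the other times was tested with limma 3.58.1 (time as block, treatment, treatment at 1 w, mean log2 RPM of at least 0), and the script was tested on simulated data. Named genes were the 5 largest rises and falls, the 5 raised and 5 lowered genes of highest RPM, and up to 4 genes of largest difference per list. The 2 genes nearest the rule on each side and the RT-qPCR genes listed at 1 w were named too. Further genes were named as exceptions after their values were seen. The members and lists were chosen with earlier results of these data known. The IDs matched 0 entries of the RefSeq gene table, so names are those of the study's list. Scaling, minimum level, size of difference and pseudocount were varied.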

Additional observations from a re-analysis of the deposited data

How the results depend on the processing

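No paired analysis was possible because the labels give no replicate numbers and each group is 1 library; the limma fit pairs control and US by time only. The raised and lowered counts at 1 w (122 and 253) depended on the minimum level: they were 229 and 437 at 0.5 RPM, 24 and 90 at 4 RPM, and 735 and 1203 with no minimum. A log2 difference of 1 gave 798 and 1088 genes, and one of 3 gave 32 and 90. With log2(RPM + 1) 10 and 46 were left, and with 5 times the spread of genes of like level 15 and 82. Quantile normalization (151 and 208), centring on the median difference (121 and 255) and PGSC genes without overlap (102 and 228) stayed within 1.5 times. A counting interval beyond 2-fold left 122 and 253, which the rule of size itself all but fixes. Lowered genes outnumbered raised ones in each of these settings. The spread of 0.44 was 0.59 as an SD and 0.36 at a mean log2 RPM of at least 4. The control course of raised genes (-1.41) was -1.07 in US libraries, -1.31 at 4 RPM, -1.20 at a log2 difference of 1, -0.39 with the pseudocount, -0.74 from 24 h and -0.89 with quantile normalization. That of lowered genes (-0.05) was -0.10, -0.010, 0.086, -0.027, 0.49 and 0.45 in the same order, so it has no stable sign, and the cause was not tested. The limma test called 0 genes in all 8 alternatives, with 160 to 1269 genes at an unadjusted p under 0.05, the highest without the 24 h pair. Of the 66 named genes none changed sign, but 35 moved beyond their counting interval with log2(RPM + 1) and 14 with quantile normalization. With log2(RPM + 1) PGSC0003DMG400027633 went from -8.26 to -2.97 and WRKY51 (PGSC0003DMG401031196) from -6.88 to -1.93, short of the rule. With 1 pooled library a side, culture-to-culture variation cannot be estimated.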
